A study of Homo sapiens with 8 samples.

Results

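FAIRE-seq peaks that were called in a single library were collected from U2OS cells with and without ZBTB48. Peaks on chromosomes 1 to 22 and X from 8 lists were merged where they shared at least 1 bp, which gave 52105 regions, and the regions were selected on having a peak in exactly 1 list. Of all regions, 20276 (38.9%) met this rule and are called single-list regions here. None of them held more than 1 peak. For comparison, 11551 regions (22.2%) had a peak in all 8 lists and 6256 (12%) in exactly 2.

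U2OS is an osteosarcoma cell line. The libraries came from 2 WT clones (WT_4 and WT_5) and 2 ZBTB48 KO clones (KO_C5 and KO_D2), each left untreated or given 250 U/ml IFNγ for a time that the labels put at 24 h, while the study's text elsewhere gives a longer treatment for FAIRE-seq. Each of the 4 groups (untreated WT, untreated KO, IFNγ WT and IFNγ KO) therefore held 2 libraries from 2 clones, with replicate 1 from WT_4 or KO_C5 and replicate 2 from WT_5 or KO_D2. Within a genotype, clone and replicate cannot be told apart, and p-values measure the spread between these libraries only. The lists held 16730 to 37533 peaks each. Promoters of RUNX2, SP7 and MSX2, which mark the osteoblast lineage, had a peak in all 8 lists, whereas those of COL1A2, IBSP, SPP1 and DLX5 had none in any list. The blood markers PTPRC, MS4A1, CD3E and CD14 had no promoter peak in any list either. The ZBTB48 promoter had a peak in all 8 lists, so the deleted gene could not be checked from these files.

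FAIRE-seq separates DNA that is not held by nucleosomes from crosslinked chromatin, so a peak marks open chromatin. Promoters of active genes, which are often CpG islands rich in SP/KLF, ETS, NRF1 and NF-Y binding sites, stay open in most cells, whereas distal enhancers, bound by factors such as AP-1, RUNX and TEAD in mesenchymal cells, vary more between cell states. Promoters that answer to IFNγ often carry GAS sites or ISRE sites, the latter bound by the IRF factors. ZBTB48, also called TZAP, is a zinc finger protein that binds telomeric TTAGGG repeats and the promoters of a few genes.

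The strongest single-list region of each library, outside annotated UTRs, is shown by the bases about its summit (GRCh38, plus strand), because these were the strongest peaks that the other 7 lists lacked. The name is the gene with the nearest transcription start site (TSS), and capitals mark matches on either strand to any of the 12 motifs described with the motif results.
ENSG00000289901, untreated WT replicate 1, chr13:109424102-109424302: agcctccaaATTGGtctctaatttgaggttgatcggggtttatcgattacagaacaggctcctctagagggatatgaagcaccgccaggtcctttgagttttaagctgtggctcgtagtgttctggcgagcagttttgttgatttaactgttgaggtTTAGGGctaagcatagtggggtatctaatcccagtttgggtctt
TTC12-DT, untreated WT replicate 2, chr11:113289682-113289882: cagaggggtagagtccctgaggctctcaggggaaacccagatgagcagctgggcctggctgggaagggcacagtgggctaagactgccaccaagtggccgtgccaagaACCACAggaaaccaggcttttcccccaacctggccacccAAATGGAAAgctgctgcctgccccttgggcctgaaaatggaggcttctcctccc
ENSG00000259047, untreated KO replicate 1, chr14:42994069-42994269: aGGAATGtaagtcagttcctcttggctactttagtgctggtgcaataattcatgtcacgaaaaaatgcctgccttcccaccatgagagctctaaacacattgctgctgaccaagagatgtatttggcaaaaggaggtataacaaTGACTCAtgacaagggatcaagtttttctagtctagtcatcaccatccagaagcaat
ENSG00000258987, untreated KO replicate 2, chr14:93939699-93939899: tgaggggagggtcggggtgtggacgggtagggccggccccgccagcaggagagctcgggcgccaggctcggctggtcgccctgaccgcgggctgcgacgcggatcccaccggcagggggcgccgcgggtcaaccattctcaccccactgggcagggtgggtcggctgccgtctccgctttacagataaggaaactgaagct
RAC1, IFNγ WT replicate 1, chr7:6385472-6385672: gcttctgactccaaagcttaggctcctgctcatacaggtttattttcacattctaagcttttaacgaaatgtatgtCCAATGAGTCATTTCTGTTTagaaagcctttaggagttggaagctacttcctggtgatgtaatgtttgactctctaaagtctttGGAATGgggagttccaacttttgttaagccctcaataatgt
SNX9, IFNγ WT replicate 2, chr6:157669738-157669938: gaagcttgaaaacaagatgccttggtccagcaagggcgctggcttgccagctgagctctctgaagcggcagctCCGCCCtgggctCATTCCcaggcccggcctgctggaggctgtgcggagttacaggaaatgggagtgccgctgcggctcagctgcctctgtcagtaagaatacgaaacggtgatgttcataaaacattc
ENSG00000273348, IFNγ KO replicate 1, chr18:22286633-22286833: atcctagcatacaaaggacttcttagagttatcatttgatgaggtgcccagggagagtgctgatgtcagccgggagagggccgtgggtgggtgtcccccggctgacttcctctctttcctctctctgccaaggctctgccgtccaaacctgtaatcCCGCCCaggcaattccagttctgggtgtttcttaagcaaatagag
RPL23AP91, IFNγ KO replicate 2, chr16:57316708-57316908: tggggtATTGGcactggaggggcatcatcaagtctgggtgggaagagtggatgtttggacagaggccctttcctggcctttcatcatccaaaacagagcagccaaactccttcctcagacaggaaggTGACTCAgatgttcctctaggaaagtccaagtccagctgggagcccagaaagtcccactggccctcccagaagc

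The 8 sequences were of different kinds. The top region of untreated WT replicate 1 lay in an exon of the lncRNA gene ENSG00000289901 on chromosome 13 and had a fold enrichment of 21.1, from a summit pileup of 34 fragments over a local background of 0.656. Of the 300 bp about its summit, 219 bases were covered by stretches of 20 bases or more found unchanged in the mitochondrial genome. In all lists, 4 single-list regions had at least 50 such bases, 1 in this library and 3 in untreated KO replicate 1, against 0 of 175621 other peaks. The top region of untreated KO replicate 2 was a CpG-rich sequence with 20 CpG dinucleotides in the printed bases, 121 bp from a TSS of the lncRNA gene ENSG00000258987. The top regions in untreated KO replicate 1 (4821 bp from a pseudogene on chromosome 14), IFNγ WT replicate 1 (in an intron, nearest to RAC1, a small GTPase gene) and IFNγ KO replicate 2 (4308 bp from the pseudogene RPL23AP91) each held an AP-1 site and 0 or 1 CpG. The top region of all, enriched 21-fold at a −log10 p of 50.8, was intronic, 30383 bp from a TSS of SNX9, a sorting nexin gene, in IFNγ WT replicate 2.

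Single-list regions were spread very unevenly over the libraries. IFNγ WT replicate 2 held 7675 of them (20.4% of its list) and untreated WT replicate 1 held 3379 (15.6%), so that these libraries together gave 54.5% of all. Untreated WT replicate 2 had 2729 (9.23%) and untreated KO replicate 1 had 1858 (9.65%). IFNγ KO replicate 2 had 1996 (8.07%), IFNγ KO replicate 1 had 1337 (4.87%) and IFNγ WT replicate 1 had 1157 (6.12%). Untreated KO replicate 2, the shortest list, had only 145 (0.867%). By clone, WT_5 gave 10404, WT_4 4536, KO_C5 3195 and KO_D2 2141. These counts are the selection itself and were not tested.

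The counts moved with the length of the lists. When every list was reduced to its strongest 16730 peaks by −log10 p, the number of single-list regions fell to 6733 and their order changed. IFNγ WT replicate 2 then had 455 (2.72% of its reduced list), while untreated KO replicate 1 had 1846 (11.0%), the highest of the 8, followed by untreated WT replicate 1 with 1317 (7.87%) and IFNγ WT replicate 1 with 916 (5.48%). The other 4 libraries had 405 to 747. The files give no read depth, and the study's methods give only a range of read numbers over the FAIRE-seq samples, with no value per library. The lowest local background in a list was 0.621 to 1.08 fragments per base and was 0.770 in IFNγ WT replicate 2, within the range of the other libraries. How this value relates to read depth was not tested, and the use of input DNA as control is not known.

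**Figure D1:**
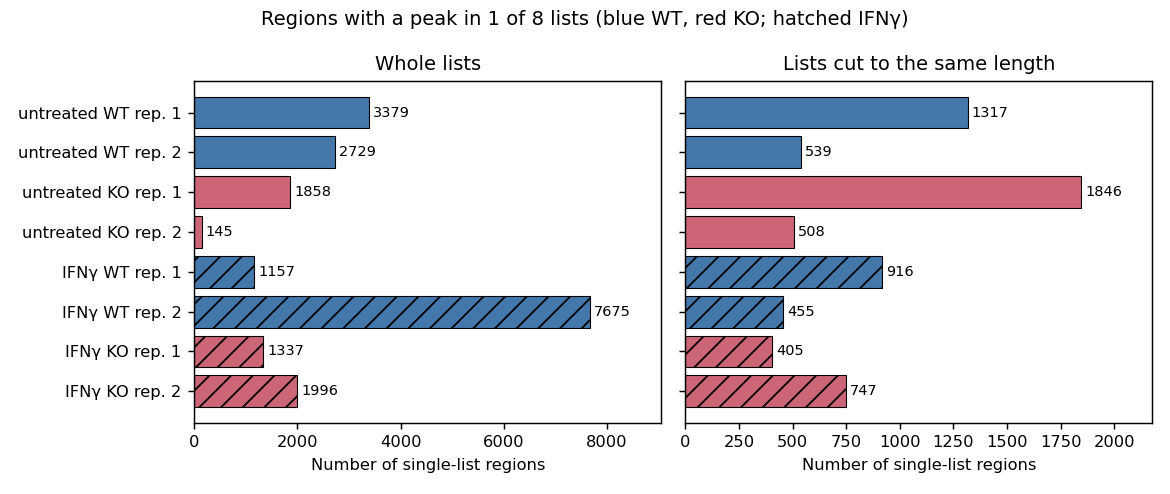
Number of single-list regions per library (bars) in the whole lists and after each list was cut to its strongest 16730 peaks. IFNγ WT replicate 2 led with 7675 in the whole lists and fell to 455 at equal length, where untreated KO replicate 1 led with 1846.

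Columns 7 and 8 of the lists hold the fold enrichment at the summit and its −log10 p. Single-list regions were weak peaks in every library. Their median fold enrichment was 4.71 to 5.82 per library, against 10.1 to 19.4 for the other peaks of the same lists, and their median −log10 p was 6.32 to 8.99, against 26.8 to 47.9. The median summit pileup of single-list regions over all libraries was 10 fragments, with a range of 5 to 53. Of the 20276, 14512 (71.6%) ranked in the lowest 20% of their list by −log10 p, and 171 (0.843%) ranked above its median. Of these 171, 134 were in IFNγ WT replicate 2. Regions with a peak in exactly 2 lists, just outside the rule, were stronger, with median fold enrichments of 5.07 to 6.47 and median −log10 p values of 7.29 to 10.9. How much stronger differed between libraries. Their median percentile within the list was 29.6 against 14.9 in IFNγ WT replicate 2, and 10.8 against 8.09 in IFNγ WT replicate 1. Single-list regions were also narrower, with a median width of 236 to 302 bp against 383 to 529 bp for the other peaks.

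**Figure D2:**
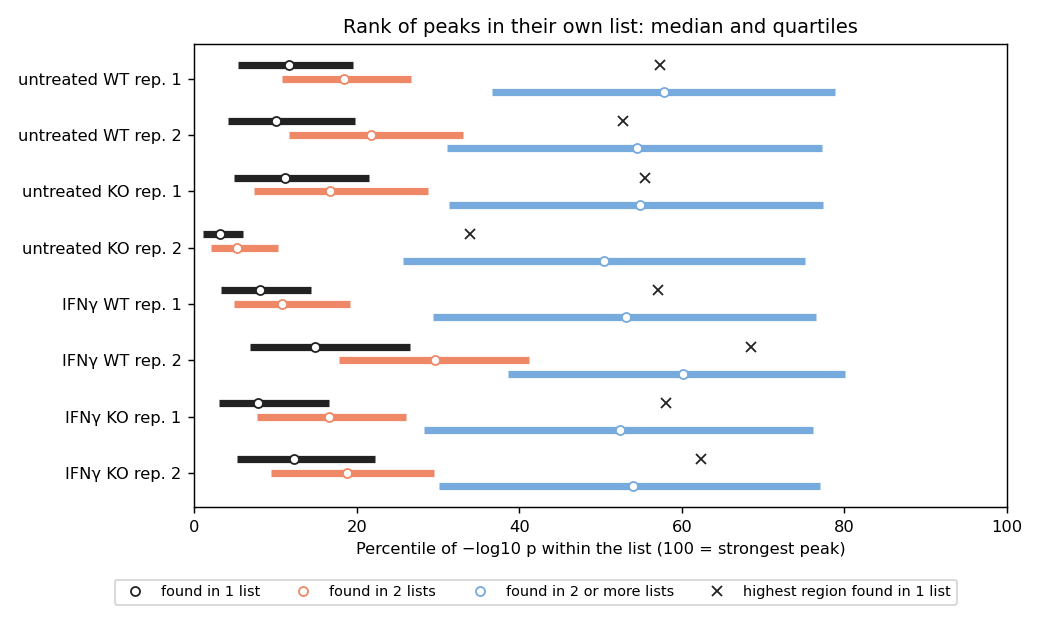
Percentile of −log10 p within the list (100 is the strongest peak) for peaks found in 1 list, in 2 lists and in 2 or more lists: circles are medians, bars run between the quartiles and crosses mark the highest single-list region. Medians of single-list regions lay between 3.20 and 14.9, and the highest reached 68.5 in IFNγ WT replicate 2.

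The regions of exactly 2 lists did not spread evenly over the 28 pairs of libraries. The 4 pairs from the same clone held 2331 of 6256 (37.3%), of which 1765 were shared by the untreated and the IFNγ library of clone WT_5. The pair of IFNγ WT replicate 2 and IFNγ KO replicate 1 held 1187. The 7 pairs with untreated KO replicate 2 held 10 to 37 each. Without IFNγ WT replicate 2, untreated WT replicate 2 would have had 4566 single-list regions in place of 2729, and IFNγ KO replicate 1 2582 in place of 1337.

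The position of the regions relative to genes was not used by the rule and could be compared within each list. Fewer single-list regions lay at promoters. A TSS within 1 kb was found for 41.0% of them in untreated WT replicate 1, 27.6% in IFNγ WT replicate 2, 24.1% in untreated KO replicate 2, 22.9% in untreated WT replicate 2, 19.7% in IFNγ WT replicate 1, 19.1% in IFNγ KO replicate 1, 18.1% in IFNγ KO replicate 2 and 9.74% in untreated KO replicate 1. Among the other peaks of the same lists the share was 59.4 to 77.5%, so the 2 kinds of peak did not overlap between libraries. The difference averaged -46.4 percentage points (SD 11.1, n = 8 libraries) and was negative in 8 of 8 (two-sided exact sign-flip permutation test, p = 0.00781, the smallest that 8 libraries can give). Shared peaks recur between lists, so the 8 differences were not independent of each other. With the 2 libraries of a clone averaged (a replicate block over 4 clones) the exact permutation p was 0.125, the smallest that 4 clones can give.

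The difference depended on what the members were set against. Against the peaks of the same list found in exactly 2 lists it was -6.17 percentage points (exact permutation test, p = 0.00781). When both kinds of peak were taken from the lowest 20% of their list, the promoter share was 22.8% for single-list regions and 45.6% for the others, a difference of -22.8 percentage points that was negative in 8 of 8 libraries (exact permutation test, p = 0.00781). Over all members, 10585 (52.2%) had their summit in an intron, 6086 (30.0%) between genes and 3605 (17.8%) in an exon. The median distance to the nearest TSS ran from 1835 bp in untreated WT replicate 1 to 16000 bp in untreated KO replicate 1, where 20.8% of single-list regions were more than 50 kb from any TSS. The distance to shared regions was measured for single-list regions only, so no share for other regions stands beside it. A region of 2 or more lists lay within 10 kb of 45.9% and within 1 kb of 12.7% of single-list regions. The share within 10 kb ran from 24.9% in untreated KO replicate 1 to 54.0% in IFNγ WT replicate 2.

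Base composition differed in the same way. The mean GC content of the 300 bp about the summit was 64.4% in untreated WT replicate 1, 57.0% in IFNγ WT replicate 2, 53.4% in untreated WT replicate 2, 52.7% in IFNγ KO replicate 1, 51.7% in untreated KO replicate 2, 51.2% in IFNγ KO replicate 2, 48.6% in IFNγ WT replicate 1 and 40.7% in untreated KO replicate 1. The other peaks of the lists had 62.7 to 68.0%. The difference averaged -12.5 percentage points (SD 6.88, n = 8) and was negative in 8 of 8 libraries (exact permutation test, p = 0.00781; replicate block over 4 clones, p = 0.125). CpG dinucleotides numbered 1.3 to 6.92 per 100 bp in single-list regions and 6.82 to 9.46 in the others (mean difference -4.66, SD 1.60, n = 8; exact permutation test, p = 0.00781; replicate block, p = 0.125). Against peaks found in exactly 2 lists the differences were -2.75 percentage points of GC (exact permutation test, p = 0.0156) and -0.531 CpG per 100 bp (exact permutation test, p = 0.0391). Within the lowest 20% of each list they were -6.46 percentage points of GC (negative in 7 of 8; exact permutation test, p = 0.0234) and -2.08 CpG per 100 bp (negative in 7 of 8; p = 0.0156 by the same exact test).

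The libraries at the ends of this range differed in kind. In untreated WT replicate 1, 78.7% of single-list windows had over 60% GC, 37.7% of summits were exonic and 9.85% lay within 1 Mb of a chromosome end, against 4.18% of the other peaks in that list. In untreated KO replicate 1, 84.7% of windows had less than 45% GC, 5.49% of summits were exonic and 0.484% lay within 1 Mb of a chromosome end, against 3.19% of its other peaks. These were also the libraries with the most single-list regions at equal list length.

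**Figure D3:**
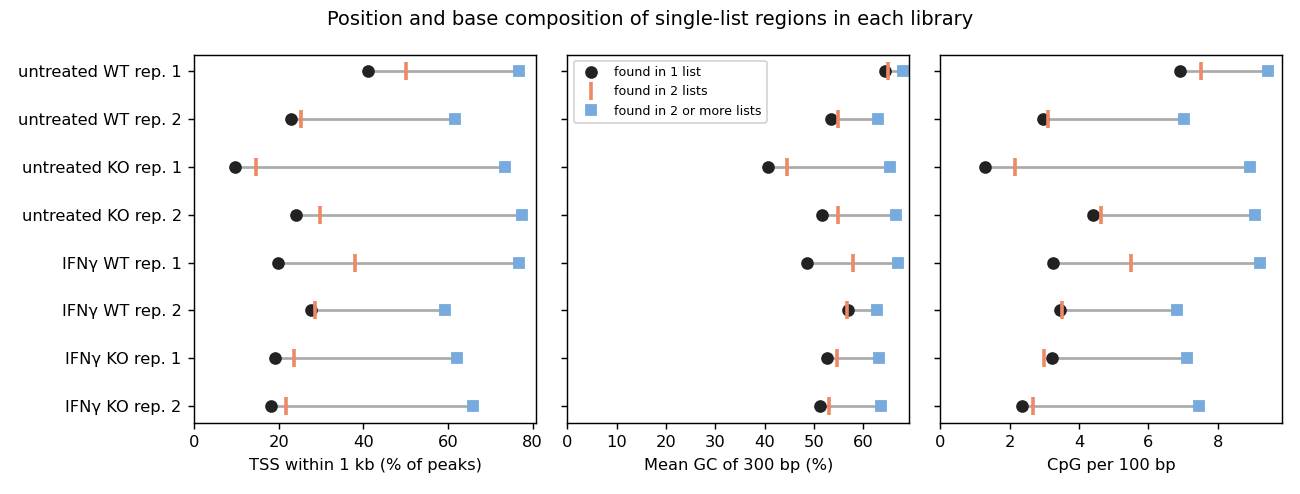
Share of peaks with a TSS within 1 kb, mean GC of the 300 bp about the summit and CpG per 100 bp in each library, for peaks found in 1 list (circles), in exactly 2 lists (ticks) and in 2 or more lists (squares). Single-list regions lay below the squares in every library, and untreated KO replicate 1 was lowest in all 3 measures.

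For transcription factor motifs, the share of 300 bp windows with a match on either strand was counted for 12 short sequences: AP-1 (TGACTCA), the SP/KLF GC box (GGGCGG), ETS (CCGGAA), the NF-Y CCAAT box (CCAAT), NRF1 (GCGCATGCG), the CTCF core (CCANNAGGG), RUNX (TGTGGT), TEAD (GGAATG), an ISRE pair of core repeats (TTTCNNTTT), GAS (TTCNNNGAA), the telomere hexamer (TTAGGG) and a control hexamer (GTGAGT), of which the last can overlap an AP-1 site. In all regions, taking the strongest peak of each, these were found in 16.3%, 42.9%, 13.7%, 25.8%, 1.27%, 8.77%, 19.3%, 16.3%, 11.5%, 6.89%, 6.81% and 16.4% of windows, in that order. A match is a description of the letters and not a bound site.

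Of 4 motifs common at promoters, 3 were rarer in single-list regions and the NF-Y CCAAT box did not pass (23.2% against 28.6%, lower in 7 of 8 libraries; adjusted exact permutation p = 0.141). The GC box was present in 25.2% of their windows (SD 13.6, n = 8 libraries) against 64.7% (SD 7.79) of the other peaks, ETS in 6.59% against 21.9% and NRF1 in 0.128% against 2.72%. Each of these 3 was lower in 8 of 8 libraries (exact permutation tests adjusted by Benjamini-Hochberg over 12 motifs, adjusted p = 0.0187). RUNX (21.6% against 13.0%) and the ISRE pair (16.4% against 7.89%) were higher in 8 of 8 libraries with the same adjusted p by the exact permutation test, although in untreated WT replicate 1 the ISRE pair stood at 5.68% and 5.64%, and the call for the ISRE pair was lost without IFNγ WT replicate 1 or without IFNγ KO replicate 2 (adjusted exact permutation p = 0.0750 in each). Against peaks of exactly 2 lists the difference was -2.04 percentage points for RUNX and 1.49 for the ISRE pair (adjusted exact permutation p = 0.208 in each). In all, 7 of the 12 motifs did not pass. With a replicate block over 4 clones none of the 12 could pass, and 0 did.

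GC content moved with these shares. Among windows of 45 to 60% GC, the GC box (18.4% against 31.7%), ETS (4.35% against 15.3%) and NRF1 (0.0444% against 1.61%) were again lower in 8 of 8 libraries (adjusted exact permutation p = 0.0156). RUNX (25.7% against 24.7%; adjusted p = 0.930) and the ISRE pair (17.4% against 15.0%; adjusted p = 0.102, exact permutation tests) did not pass there. Within the lowest 20% of each list none of the 12 passed after adjustment, and 3 (the GC box, ETS and NRF1) had an unadjusted exact permutation p under 0.05. ETS, at 6.39% against 11.1%, was lower in 8 of 8 libraries with an unadjusted exact permutation p of 0.00781.

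AP-1 sites varied widely between libraries. They were found in 41.4% of the single-list windows of IFNγ KO replicate 2, against 16.3% of its other peaks, and in 27.4% against 10.7% in untreated KO replicate 1. In untreated WT replicate 1 they were found in 3.02% against 6.92%. Across libraries the AP-1 difference was 5.51 percentage points and did not pass (exact permutation test, adjusted p = 0.316). With lists of equal length it was 16.4 percentage points and passed (adjusted exact permutation p = 0.0234), as did the control hexamer, which can overlap an AP-1 site, at 7.37 (adjusted exact permutation p = 0.0187). The part of this overlap in the AP-1 difference was not tested. TEAD (9.38, adjusted exact permutation p = 0.0234) and GAS (4.13, adjusted exact permutation p = 0.0312) passed at equal length as well. Against peaks of exactly 2 lists the AP-1 difference was -5.19 (adjusted exact permutation p = 0.0469). Untreated KO replicate 1 also had the highest shares of RUNX (37.7% against 13.4%) and TEAD (27.8% against 13.2%). Its windows of 6 or more GGAATG copies, a unit of classical satellite repeats as well as the TEAD site, numbered 13, against 2 among its other peaks. The telomere hexamer was found in 6.56% (SD 1.38) of single-list windows and 6.69% (SD 0.446) of the others and did not pass (exact permutation test, adjusted p = 0.727). It passed as lower in single-list regions under 3 other settings, by -0.890 percentage points against peaks of exactly 2 lists (adjusted exact permutation p = 0.0469), by -2.68 in windows of 45 to 60% GC (adjusted exact permutation p = 0.0156) and by -4.98 over whole peaks (adjusted exact permutation p = 0.0156), where single-list regions are the narrower ones.

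**Figure D4:**
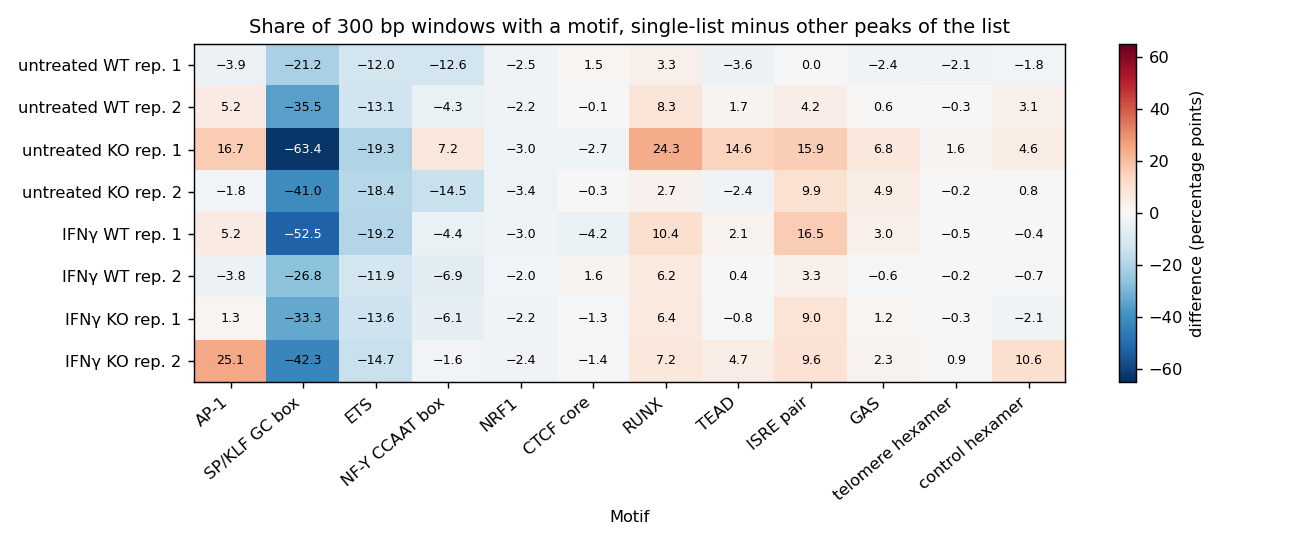
Share of 300 bp windows with a motif in single-list regions minus that in the other peaks of the same list, in percentage points, for 8 libraries and 12 motifs. The GC box was lower in every library, and AP-1 ran from -3.90 in untreated WT replicate 1 to 25.1 in IFNγ KO replicate 2.

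The share of peaks on each chromosome was compared in the same way. None of the 23 chromosomes passed the exact permutation test after Benjamini-Hochberg adjustment (lowest adjusted p = 0.180). With 8 libraries a single chromosome could not go below that value on its own, so the test says little about evenness. Of the 23, 4 had an unadjusted p under 0.05: chromosomes 8 and 21 with a higher and 12 and X with a lower share of single-list regions. X was lower in 7 of 8 libraries, with 0.562% of single-list against 2.32% of other peaks in untreated WT replicate 1. On X, 22.5% of 919 regions were single-list, against 38.9% of all regions. Single libraries stood out on other chromosomes. In IFNγ WT replicate 1, 16.2% of single-list regions (188) were on chromosome 7 and 13.7% (159) on chromosome 14, where its other peaks had 5.91% and 3.81%. In untreated WT replicate 2, 15.4% (420) were on chromosome 1, against 10.4% of its other peaks. In untreated KO replicate 1, 11.7% (217) were on chromosome 2 and 0.700% (13) on chromosome 19, against 7.37% and 6.29%.

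The local background was read beside these shares, as the median background at regions found in all 8 lists on a chromosome relative to the median over all chromosomes. In IFNγ WT replicate 1 it was 1.12 on both chromosomes 7 and 14, and in untreated WT replicate 2 it was 0.875 on chromosome 1. On X it was 0.516 to 0.610 in the 8 libraries. U2OS carries many gains and losses of chromosome segments, whose part in these shares was not tested.

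**Figure D5:**
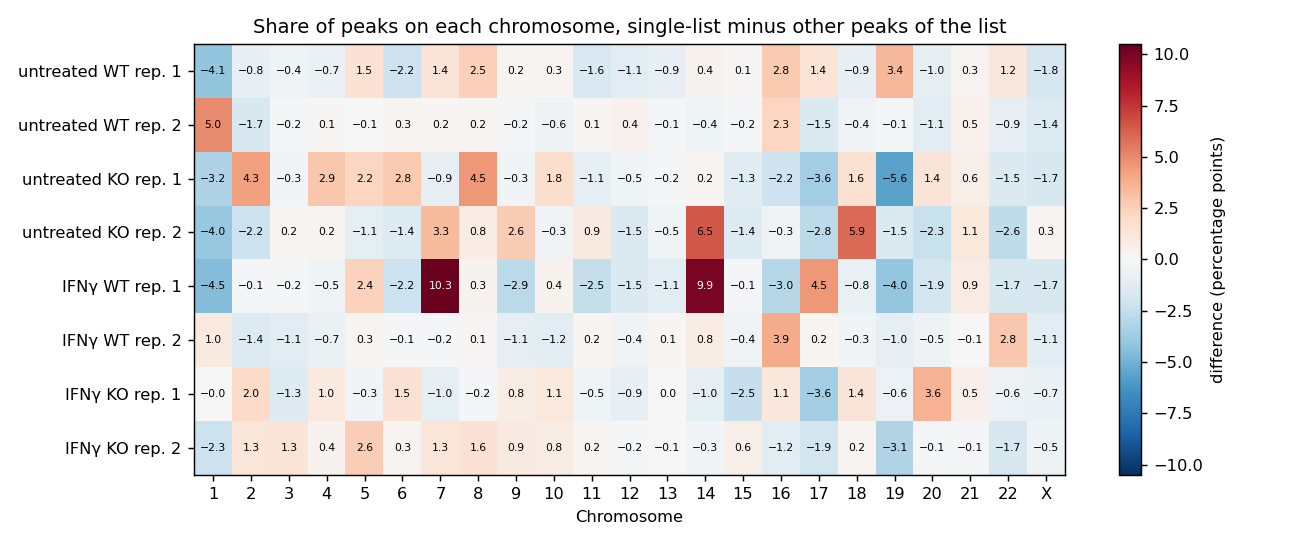
Share of single-list regions on each chromosome minus the share of the other peaks of the same list, in percentage points, per library. IFNγ WT replicate 1 stood out on chromosome 7 (10.3) and chromosome 14 (9.93).

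Some members lay close together. The densest 1 Mb was chr16:88000001-89000000 in IFNγ WT replicate 2, with 119 single-list regions beside 64 other peaks of that list, and the strongest of them was 42742 bp from ZNF469, a zinc finger gene. In untreated WT replicate 1 the densest was chr16:1000001-2000000 with 64, led by a region 63 bp from a TSS of CACNA1H, a T-type calcium channel gene. The densest 1 Mb of IFNγ WT replicate 1, with 21, was on chromosome 7 near FSCN1, which encodes the actin-bundling protein fascin. IFNγ KO replicate 2 had 18 in the first 1 Mb of chromosome 7, led by a region near PRKAR1B, and IFNγ KO replicate 1 had 13 on chromosome 20, led by a region near UCKL1. The densest 1 Mb of untreated WT replicate 2 held 24 (near LY6S), that of untreated KO replicate 1 held 15 (near ARHGAP28), and untreated KO replicate 2 never had more than 3. Other peaks of the same list outnumbered members in the bins near LY6S (82), PRKAR1B (68), UCKL1 (55) and FSCN1 (41). They were fewer than the members near CACNA1H (54) and ARHGAP28 (12). Across the densest bins of all libraries, 5 to 102 single-list regions came from other libraries, so these stretches were not particular to 1 list.

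Genes with promoter peaks give another view of the members. Within 500 bp of a TSS of a protein-coding gene, 2682 single-list regions were found, at 2285 genes. These were 15.8% of the 14428 protein-coding genes with any region there. At 753 genes the promoter had peaks in 1 list alone, 299 of them in untreated WT replicate 1, 244 in IFNγ WT replicate 2 and 3 in untreated KO replicate 2.

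Among 77 interferon-related genes, 63 had a promoter region and 17 of these had a single-list region, at 19 sites in all. That was 27.0%, against 15.8% of all protein-coding genes with a promoter region. The single-list site was in an IFNγ library for 15 of the 17 genes, against 57.2% of all genes with such a site. At 10 genes no other list had a promoter peak, and in all 10 the list was that of an IFNγ library, against 47.3% of the 753 genes open in 1 list alone. These were GBP1 and GBP3, guanylate-binding proteins of cell-autonomous immunity, IDO1, which degrades tryptophan, CXCL10, a chemokine, MX2 and OASL, antiviral effectors, APOL1, APOL6, XAF1 and TRIM22. The members were selected on presence in a single list, so these counts are a description with no test, and IFNγ WT replicate 2, the longest list, held 10 of the 17 genes. Without that library 8 interferon genes had a single-list region.

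The peaks themselves were weak. In IFNγ WT replicate 2 the region at GBP1 (chr1:89065238-89065451, reaching the TSS) was enriched 5.01-fold (−log10 p 6.96), from 9 fragments at the summit over a background of 0.998, and that at GBP3 had a fold enrichment of 5.09 from 8 fragments. The region at APOL1, the strongest of these genes in that library, was enriched 7.97-fold (−log10 p 14.5) from 17 fragments. APOL6 (14 fragments), XAF1 (8), OASL (8) and MX2 (6) had fold enrichments of 3.61 to 5.02. In IFNγ WT replicate 1, IDO1 had single-list sites with 8 fragments each, at the TSS and at chr8:39917227-39917570, 315 bp from an annotated start, and CXCL10 had a site of 7 fragments with a fold enrichment of 3.54, 14 bp from a TSS. In IFNγ KO replicate 2, TRIM22 had a fold enrichment of 6.39 from 16 fragments. Of the 19 sites at interferon genes, 12 held the ISRE pair and 3 the GAS letters, where 6.30% and 5.22% of all single-list promoter regions did.

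The other 7 interferon genes had promoter peaks in further lists as well. IRF2, a repressing interferon regulatory factor, had a separate single-list site in IFNγ WT replicate 2 and peaks in 7 other lists. STAT3, a cytokine signal transducer, had a separate single-list site in untreated WT replicate 2 and peaks in 7 other lists. PML, the organiser of nuclear bodies, had 2 such sites in untreated WT replicate 1 and peaks elsewhere in its promoters in 6 other lists. IFI16 had one in IFNγ KO replicate 1. HLA-B and HLA-C, in IFNγ KO replicate 2 and IFNγ WT replicate 2, belong to a family of near-identical genes whose reads are hard to place. Of 12 MHC class II genes, 5 had a promoter region and 2 of these a single-list one. The share over all protein-coding genes was 15.8%, and a count from 5 genes was not tested against it. HLA-DQB1 had 10 fragments and a fold enrichment of 3.0 in IFNγ KO replicate 2, with no peak in any other list. HLA-DMA had 9 fragments in IFNγ WT replicate 2, beside peaks in 7 other lists.

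Of the ZBTB48 target genes, all 5 had a promoter region, and CIITA and VWA5A had a single-list one. These 2 of 5 stand beside 15.8% of all protein-coding genes with a promoter region and were not tested. The promoters of SNX15 and PXMP2 had peaks in all 8 lists. That of MTFP1 had peaks in 3 lists, all of WT clones (untreated replicate 2 and both IFNγ libraries).

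CIITA encodes the master regulator of MHC class II genes and is switched on by IFNγ. Within 500 bp of any of its annotated starts, a count that pools its promoters, the 4 IFNγ libraries had peaks and the untreated ones had none. The single-list region was a separate site in IFNγ WT replicate 2, reaching an annotated start, enriched 5.41-fold (−log10 p 10.2) from 17 fragments over a background of 2.33. VWA5A, a gene of the von Willebrand factor A domain family, had a peak at its start in untreated WT replicate 2 alone, enriched 6.42-fold (−log10 p 10.1) from 12 fragments over 1.02.

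In the remaining lists, FOS had a single-list site in untreated WT replicate 2 beside peaks in 7 other lists. BATF2, an AP-1 family member, had a site in IFNγ WT replicate 2 beside peaks in 3 other lists. They were 2 of the 10 AP-1 genes with a promoter region (20.0%), where the share over all protein-coding genes was 15.8%. Of 12 osteoblast genes with a region, TWIST1, a mesenchymal transcription factor gene, had a single-list one (8.33%), in untreated WT replicate 1 and in no other list. None of 8 shelterin and telomere genes with a promoter region had a single-list one. With so few genes in a list, these counts do not set the lists apart from the share of 15.8%. Of the markers of other cell types, RBFOX3 and NKX2-1 had single-list sites in untreated WT replicate 1, beside promoter peaks in 4 and 7 other lists.

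Other strong members were mostly away from promoters. In untreated WT replicate 1 one was a CpG-rich region at the start of OSR2, a transcription factor gene of skeletal development (fold enrichment 17.1). Untreated WT replicate 2 had regions nearest to STEAP4, a metalloreductase gene, 3949 bp from its TSS, and to the pseudogene NUDT19P3. Untreated KO replicate 1 had a region at a start of HPS4, a gene of lysosome-related organelle biogenesis, and 1 in an intron, nearest to the lncRNA gene ENSG00000275923. IFNγ WT replicate 1 had an intronic region 711 bp from a TSS of POMT2, an O-mannosyltransferase gene, with an AP-1 site. IFNγ WT replicate 2 had an intronic region 2761 bp from RTN4R, the Nogo receptor gene, with a fold enrichment of 19.2. IFNγ KO replicate 2 had 1 nearest to TENM4, 5281 bp away. Untreated KO replicate 2 had none with a fold enrichment above 9.90.

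IFNγ treatment and genotype were compared over the members' independent features. The promoter share of single-list regions was 21.1% ± 4.35 (SD, n = 4) in IFNγ libraries and 24.5% ± 12.8 (SD, n = 4) in untreated ones, a difference of -3.33 percentage points (two-sided exact permutation test over 70 assignments, p = 0.686). GC content was 52.4% ± 3.53 and 52.5% ± 9.68 (n = 4 each; exact permutation test, p = 0.971). The ISRE pair was present in 18.3% ± 4.71 of windows with IFNγ and 14.6% ± 7.60 without (n = 4 each; exact permutation test, p = 0.343), and GAS in 7.82% ± 1.3 and 8.56% ± 4.68 (n = 4 each; exact permutation test, p = 0.83). None of these differences exceeded the spread between libraries. Within clones the promoter share changed by -21.3 (WT_4), 4.64 (WT_5), 9.41 (KO_C5) and -6.05 (KO_D2) percentage points with IFNγ, so the direction differed between clones.

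Between genotypes, the clone means of the promoter share were 27.8% ± 3.61 (SD, n = 2) for WT and 17.8% ± 4.71 (SD, n = 2) for KO, and those of GC content 55.9% ± 0.879 and 49.1% ± 3.38. Both WT clones lay above both KO clones in each of these measures, and the exact permutation p of 0.333 in each is the smallest that 4 clones allow. CpG per 100 bp was 4.15 ± 1.32 for WT and 2.82 ± 0.786 for KO (exact permutation test, p = 0.667). Without IFNγ KO replicate 2 the promoter share difference was 7.27 percentage points (exact permutation test, p = 0.667). Within 50 kb of a TSS of the 77 interferon genes lay 108 single-list regions (0.533%). Their share was 0.524 to 0.852% of the members in the 4 IFNγ libraries and 0 to 0.696% in the untreated ones, which overlapped.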

How the data were processed

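FAIRE-seq libraries from 2 WT and 2 ZBTB48 KO clones of U2OS, untreated or with IFNγ, were used as 8 deposited peak lists, 1 per library. Per the study's methods and the labels, the authors trimmed the reads with Trimmomatic, aligned them to GRCh38 with Bowtie2 (2.2.5), dropped poorly mapping reads (SAMtools 1.14) and used MACS2 (2.2.7.1) as paired-end peak caller. Whether input DNA served as control in peak calling is not given in the sources used here. The lists are per library, before any comparison of replicates. Column 7 of the deposited lists is the fold enrichment at the summit, a linear ratio, columns 8 and 9 are −log10 p and −log10 q, and column 5 is a score that was not used. Depth per library is not recorded, and the study's methods give only a range of read numbers over the FAIRE-seq samples. The −log10 values grow with depth.

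Peaks on chromosomes 1 to 22 and X were merged at 1 bp of overlap, and single-list regions were defined by a peak in exactly 1 list. The members, gene lists and motifs were chosen with earlier results of these data known. The whole-number summit pileup and local background were solved from columns 7 and 8 (largest relative error 7.1e-06). TSSs, exons and UTRs came from GENCODE 44, and sequence from GRCh38, in 300 bp about the summit. Features not used by the rule were compared per library, single-list minus other peaks, by two-sided exact sign-flip tests over 8 libraries, with Benjamini-Hochberg adjustment over 12 motifs or 23 chromosomes, and between groups by exact permutation. The untreated and IFNγ library of a clone share a replicate number, so the clone served as replicate block, and the correlation of their deviations from the group means over 38 measures of the members was 0.139 (KO_C5), -0.0981 (KO_D2), 0.0787 (WT_4) and 0.508 (WT_5). Named regions were the 3 strongest of each library, all at promoters of the interferon, MHC class II, ZBTB48 target, AP-1 and osteoblast lists, and the strongest in the densest 1 Mb of each library. Markers of other cell types named with single-list sites were added after their values were seen. Sequences are the first of each library outside UTRs and chromosome 8. A few named regions, marker genes and sequences are not reported here. The merging and the tests were checked on simulated lists. Python 3.11.15 with NumPy 2.4.6, pandas 2.3.3, SciPy 1.17.1 and Matplotlib 3.10.9 was used. A comparison of repeat-masked bases was not run, because the reference used here is in capitals throughout.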

Additional observations from a re-analysis of the deposited data

Results flagged for a closer look

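Of 129 sets of 4 or 8 libraries examined, 13 had a library at one end far from the rest (a gap large against the range of the set, by Dixon's 95% value), where chance flags about 1 set in 20. The 129 sets share libraries and were not independent.

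The number of single-list regions in IFNγ WT replicate 2, 7675, stood apart from the other 7 libraries and from the other 3 IFNγ libraries. It fell to 455 when the lists were cut to the same length. Its promoter share of 27.6% was also above the other 3 IFNγ libraries (18.1 to 19.7%). In untreated KO replicate 1, single-list windows with a RUNX site exceeded those of its other peaks by 24.3 percentage points and those with a TEAD site by 14.6, each far above the other 7 libraries. In IFNγ KO replicate 2 the control hexamer, which can overlap an AP-1 site, was 10.6 percentage points more frequent in single-list regions.

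Of the chromosomes, IFNγ WT replicate 1 had an excess of single-list regions on chromosome 7 of 10.3 percentage points and on chromosome 14 of 9.93, and a difference on chromosome 13 of -1.11. Untreated WT replicate 2 had an excess on chromosome 1 of 4.95. Untreated KO replicate 2 had excesses of 6.49 on chromosome 14, 5.94 on chromosome 18 and 2.65 on chromosome 9, which rest on its 145 members.

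Outside chromosomes 1 to 22 and X, in sequences that the comparisons did not use, the lists held 704 peaks in 260 regions. Of these regions 125 (48.1%) had a peak in 1 list, 38 of them in untreated WT replicate 1 and 25 in untreated KO replicate 1.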

How the results depend on the processing

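Of 191 recomputed values of the main results, 175 kept their direction and their side of the threshold. With the replicate block over the 4 clones the promoter share (-46.4 percentage points), GC content (-12.5) and CpG (-4.66 per 100 bp) differences kept their size, with an exact permutation p of 0.125, the smallest possible, and 0 motifs passed; the block changed no other call. In the lowest 20% of each list, an alternative added after seeing the data, 0 motifs passed by the adjusted exact permutation test and 3 had an unadjusted p under 0.05; at 45 to 60% GC, added likewise, 8 passed, and with lists of equal length 9, in place of 5. Lists of equal length also gave 6733 single-list regions, 12 listed genes with a single-list region at the promoter in place of 26, and a GC difference between IFNγ and untreated libraries of 0.860. The cause was not tested, except that shorter lists hold fewer peaks.

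The remaining values changed sign or size. The GC difference with IFNγ was 0.0923 over whole peaks, and that of GAS was 0.0674 at −log10 q of at least 3. Leaving out each library in turn gave -8.52 to 3.54 percentage points for the promoter share, -4.11 to 4.16 for GC, -0.00241 to 6.83 for the ISRE pair and -2.73 to 0.215 for GAS with IFNγ; the ends were the values without untreated WT replicate 1 and without untreated KO replicate 1. For single-list minus other peaks, the telomere hexamer ran from -0.210 to 0.0510 without each library, and was 0.505 at −log10 q of at least 3, 0.431 at a fold enrichment of at least 4 and 0.380 with lists of equal length, where the CTCF core was 0.973 and the control hexamer passed at 7.37. It passed as lower at -0.890 against peaks of exactly 2 lists, -4.98 over whole peaks and -2.68 at 45 to 60% GC. Against peaks of exactly 2 lists AP-1 was -5.19, RUNX -2.04, TEAD -4.02, the control hexamer -3.04 and chromosome 8 -0.903. Over whole peaks RUNX was 2.54 (adjusted exact permutation p = 0.484) and the ISRE pair 4.03 (adjusted exact permutation p = 0.167), neither past the threshold, and TEAD was -4.82, GAS -1.75 and the control hexamer -6.75. In the lowest 20% of each list AP-1 was -3.06, CCAAT 0.870, TEAD -3.11, GAS -1.73 and the control hexamer -2.28. At 45 to 60% GC AP-1 was -7.79, TEAD -4.88, GAS -2.88 and the control hexamer -4.31.

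The lists record no depth, so a region absent from a list was below that list's threshold and not shown to be closed. The comparison of repeat-masked bases was not run, because the reference used here carries no masking.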
